A study of Mus musculus with 234 samples.

Results

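Cardiomyocytes (CMs) are joined end to end at the intercalated disc, where 3 kinds of junction lie side by side. The 9 genes described here encode its core: Gja1 for the gap junction, Cdh2 and Ctnna3 for the adherens junction, Dsp, Dsg2, Dsc2, Pkp2 and Jup for the desmosome, and Tjp1 for the scaffold at the edge of the gap junction. They are the rows with these names, 9 of the 55538 rows of the gene count matrix. Single CMs had been picked by hand from enzymatically dissociated ventricles and sequenced by SMART-seq2, a full-length method for single cells, giving 234 cells of 5 mice. Mice of the transgenic groups carried a human BAG3 transgene with the P209L mutation, a change known from childhood myofibrillar myopathy, fused to eGFP behind a stop cassette that PGK-Cre removes.

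The control group held 33 cells of Mouse_26 and Mouse_73, labelled C57BL/6 and wt. The study's methods describe control animals as siblings with neither or only 1 of the 2 transgenes and a mixed background of 3 strains, so the label for strain and the methods differ. The homozygous group, labelled PGKcre:BAG3P209L_homo, held 80 eGFP bright and 68 eGFP dim cells, all of Mouse_25 and Mouse_116. The heterozygous group, labelled PGKcre:BAG3P209L_het, held 27 bright and 26 dim cells of Mouse_72 alone. Bright and dim were told apart under a fluorescence macroscope. The transgene is driven by the ubiquitous CAG promoter and Cre by the PGK promoter, and homozygous animals could have lost the cassette from 1 or both alleles. The cells were taken at 2 weeks of age, and no age is stated for Mouse_72 itself. The animal is the replicate, so the counts of all cells from 1 mouse and class were added up. This gave 8 sums, 2 for each of the control, homozygous bright and homozygous dim groups and 1 for each heterozygous class.

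Gap junction channels let current and small molecules pass from one CM to the next, adherens junctions tie the ends of the thin filaments to the membrane, and desmosomes tie in the desmin filaments. Inherited defects of desmosomal proteins are a known cause of arrhythmogenic cardiomyopathy. In CMs the 3 systems share proteins and partly merge into a mixed junction, in which plakophilin-2 and αT-catenin bind each other. BAG3 is a co-chaperone at the Z-disc that directs worn filament proteins to autophagy.

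The sums held 4096609 to 40508124 counts, with the smallest in control Mouse_73, and the median cell held 711527 counts. Mouse_25 and Mouse_26 belonged to the library set labelled GL-9122b and Mouse_72, Mouse_73 and Mouse_116 to GL9989, so each set held 1 control and 1 homozygous mouse. The cells had the transcriptome of CMs, since the 9 CM markers (Myh6, Tnnt2, Ttn and others) were found in every sum. They summed to 88466 to 95751 CPM (counts scaled to 1e+06 per sum) in control, 78201 to 79744 in homozygous bright, 77750 to 85169 in homozygous dim, and 98174 and 92709 in heterozygous bright and dim, so all 4 homozygous sums lay below both controls. The human BAG3 row was at 0.4 and 0.6 normalized CPM in the controls, at 279.8 and 209.0 in homozygous bright, at 10.3 and 91.1 in homozygous dim, at 110.3 in heterozygous bright and at 243.1 in heterozygous dim. Thus the transgene went with brightness in both homozygous mice and went against it in Mouse_72, where the library labelled heterozygous dim held more of it. Of the other cell types, 7 fibroblast markers summed to 33 to 142 CPM in control and to 78 and 2537 CPM in homozygous bright, the higher value in Mouse_25, with 66 to 238 CPM in homozygous dim. The 7 endothelial markers summed to 72 to 161 CPM in control, 80 to 88 in homozygous bright and 197 to 228 in homozygous dim. The 6 immune markers summed to at most 3 CPM in control and 2 in homozygous bright, with Ptprc and Adgre1 at 0 in both groups, against 54 to 60 in homozygous dim. The 6 mural markers summed to 338 to 1120 CPM in control, 790 to 1645 in homozygous bright and 1119 to 1423 in homozygous dim, with Myh11 and Tagln at 0 in both controls, and the 4 mesothelial markers to 7 CPM at most in any sum. The 8 immediate early genes that tissue dissociation can induce summed to 228 to 273 CPM in control, 591 to 752 in homozygous bright and 278 to 684 in homozygous dim. The part of these lists in the values below was not tested, and values without the cells that held other cell types' markers are given for Jup, Dsc2 and Tjp1, whose fold changes to control they moved by over 1.5 times, as they did that of Dsp in dim, from 0.00 to 0.08.

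The sequences upstream of 5 of the 9 genes are shown, those that the RefSeq table used here listed (GRCm38.p6). They let 4 genes that lay above both controls in every transgenic sum (Gja1, Ctnna3, Jup and Tjp1) be read beside Dsp, which did not. Each is the 250 bases before the annotated start, 5′ to 3′ on the gene's own strand: chr10:56377050-56377299 on the plus strand for Gja1, chr10:63429848-63430097 on the plus strand for the most upstream of 3 starts of Ctnna3, chr11:100397791-100398040 on the minus strand for Jup, chr7:65371245-65371494 on the minus strand for Tjp1 and chr13:38151044-38151293 on the plus strand for Dsp. Capitals mark matches, on either strand, to 6 motifs. The TATA box, which places the start of transcription, was searched as TATAAA. The sequence searched for the binding site of the factor NF-Y was CCAAT. Binding sites of SP1 and its relatives, known as GC boxes, were searched as GGGCGG. The core letters that TEAD factors of the Hippo pathway recognise were searched as CATTCC. Sites of the cardiac GATA factors were searched as GATAAG. The AP-1 site, bound by Fos and Jun dimers, was searched as TGANTCA. None of these matches overlaps another.
Gja1: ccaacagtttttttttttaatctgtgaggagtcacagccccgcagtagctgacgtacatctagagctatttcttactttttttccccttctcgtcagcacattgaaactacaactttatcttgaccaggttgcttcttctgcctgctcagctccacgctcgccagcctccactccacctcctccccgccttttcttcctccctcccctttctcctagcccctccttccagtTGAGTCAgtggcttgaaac
Ctnna3: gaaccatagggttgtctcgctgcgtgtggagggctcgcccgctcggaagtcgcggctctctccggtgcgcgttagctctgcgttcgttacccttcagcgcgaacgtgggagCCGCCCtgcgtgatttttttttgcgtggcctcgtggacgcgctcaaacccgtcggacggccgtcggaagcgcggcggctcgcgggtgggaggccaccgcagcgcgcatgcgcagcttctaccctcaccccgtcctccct
Jup: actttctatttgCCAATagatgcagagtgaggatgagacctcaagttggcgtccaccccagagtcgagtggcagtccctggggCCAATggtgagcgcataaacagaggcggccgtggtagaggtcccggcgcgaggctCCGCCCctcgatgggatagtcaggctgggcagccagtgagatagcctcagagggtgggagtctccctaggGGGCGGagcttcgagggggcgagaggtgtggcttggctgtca
Tjp1: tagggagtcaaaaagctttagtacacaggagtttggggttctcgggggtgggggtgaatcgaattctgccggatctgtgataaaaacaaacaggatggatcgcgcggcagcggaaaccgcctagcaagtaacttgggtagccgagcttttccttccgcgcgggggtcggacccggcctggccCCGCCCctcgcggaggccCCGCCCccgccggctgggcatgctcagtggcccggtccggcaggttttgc
Dsp: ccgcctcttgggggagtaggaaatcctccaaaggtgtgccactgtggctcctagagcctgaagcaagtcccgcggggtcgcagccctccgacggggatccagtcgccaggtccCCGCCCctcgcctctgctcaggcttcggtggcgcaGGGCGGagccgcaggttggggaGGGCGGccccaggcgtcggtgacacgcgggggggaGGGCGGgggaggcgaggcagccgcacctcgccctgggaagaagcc

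Gja1 differed from the other 4 in these letters. Its window had an AP-1 motif starting 19 bases before the start and no GC box, whereas the GC box matched 1 time for Ctnna3, 2 times each for Jup and Tjp1 and 4 times for Dsp. The AP-1 motif was held by 6.75% and the GC box by 32.7% of all 32851 windows of this length. The NF-Y site, held by 33.8% of windows, matched 2 times in Jup alone. The TATA box, the TEAD site and the GATA site, held by 12.4%, 12.6% and 6.55%, matched in none of the 5. The share of G and C was 67.6% for Ctnna3, 62.0% for Jup, 63.2% for Tjp1 and 72.4% for Dsp, beside a median of 52.4% over all windows, and Gja1 lay below that median. A match is a run of letters, not a measured binding site.

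All 9 genes were measured in every sum. Levels are given as normalized CPM, CPM after scaling by TMM (trimmed mean of M-values) factors, which aim to set the bulk of genes level between sums. Against control Mouse_73 the bulk was not level. In the fits to control the median log2 difference of Mouse_116 from it was 0.42 in bright and 0.44 in dim, over all genes tested. Per kb of exon, so that genes can be compared, the median over the 8 sums was 48.9 normalized CPM for Dsp, 35.6 for Gja1, 19.1 for Jup, 18.0 for Pkp2, 13.99 for Cdh2, 7.74 for Dsc2, 6.38 for Dsg2, 4.62 for Ctnna3 and 3.75 for Tjp1. The plaque protein of the desmosome and the gap junction channel thus headed the order, and the 2 desmosomal cadherins stood below their plaque partners in these medians, though in control Mouse_73 Dsg2 (15.0 per kb) exceeded Pkp2 (12.6) and Jup (12.2). Neighbours in this order overlapped in range, and Gja1 over Jup and Cdh2 over Dsc2 were the only neighbours in the same order in 8 of 8 sums. Dsp exceeded Gja1 in 7 sums and Jup exceeded Pkp2 in 4.

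Gja1, the gene of connexin 43, the main channel between working CMs, had 249.7 and 295.4 normalized CPM in control Mouse_26 and Mouse_73. It had 333.4 and 527.9 in the bright cells of homozygous Mouse_25 and Mouse_116, and 357.8 and 510.4 in their dim cells. Both heterozygous sums lay between these, at 388.4 in bright and 372.1 in dim. All 6 transgenic sums were above both controls, and Mouse_116 was higher than Mouse_25 in both classes. The log2 fold change to control was 0.63 ± 0.34 (SE, 2 mice a group) in bright and 0.65 ± 0.33 in dim cells, and neither passed the test (adjusted p = 0.866 and 0.926, edgeR quasi-likelihood test, adjusted over all genes). The size depended on single mice, at 0.26 in bright without Mouse_116 and 0.97 without Mouse_25, and at 0.37 and 0.93 in dim. With equal weight per cell, cells under 1000 genes included, it was 1.04 and 1.36 (limma, adjusted p = 0.522 and 0.458). The exons of Gja1, like those of all members except Dsp and Dsg2, overlap no other gene's exons in GENCODE M21, and those of Dsp and Dsg2 are overlapped over 5.17% and 3.99% of their bases by an opposite-strand gene.

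**Figure D1:**
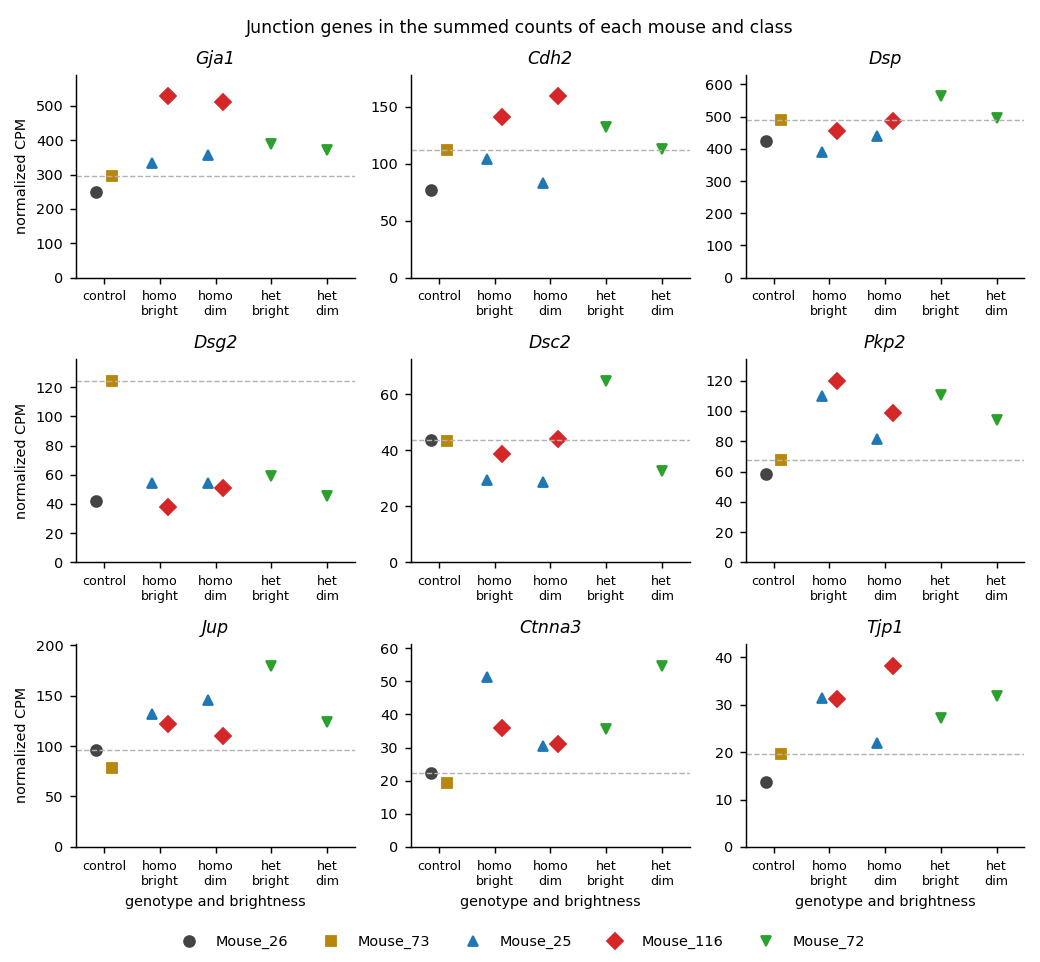
Normalized CPM (y axis, from 0) of each junction gene in the 8 sums, by genotype and brightness (x axis), with 1 marker per sum and mouse; the dashed line is the higher of the 2 controls. Gja1, Pkp2, Jup, Ctnna3 and Tjp1 lie above the line in all 6 transgenic sums, while Dsg2 lies below it in all 6.

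Cdh2 encodes N-cadherin, the calcium-dependent adhesion protein of the CM adherens junction. Its level was 76.8 and 112.5 normalized CPM in control Mouse_26 and Mouse_73, 104.6 and 140.7 in homozygous bright, 82.9 and 159.3 in homozygous dim, 132.3 in heterozygous bright and 113.3 in heterozygous dim. Mouse_25 lay between the 2 controls in both classes and Mouse_116 above them, so the groups overlapped. The log2 fold change was 0.35 ± 0.39 in bright and 0.34 ± 0.45 in dim cells (adjusted p = 0.950 and 0.999 by edgeR). The bright value was 0.09 without Mouse_26, 0.12 without Mouse_116 and 0.68 without Mouse_73. The dim value turned to -0.22 without Mouse_116 and was 0.78 without Mouse_25. Equal weight per cell gave 0.82 in bright and 0.99 in dim.

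Ctnna3 encodes αT-catenin, which links cadherin to actin and, through plakophilin-2, to the desmosome. It had 22.4 and 19.4 normalized CPM in control, 51.3 and 36.0 in homozygous bright, 30.6 and 31.2 in homozygous dim, 35.6 in heterozygous bright and 54.7 in heterozygous dim. No transgenic sum reached down to a control. The bright fold change, 1.04 ± 0.54 on the log2 scale, was the largest among the members but had a 95% interval from -0.28 to 2.35 (adjusted p = 0.864 by edgeR). In dim cells the value was 0.54 ± 0.58.

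Among the desmosomal genes, Dsp encodes desmoplakin, which holds the desmin filaments at the plaque. It had 424.3 and 489.9 normalized CPM in control, 389.7 and 456.4 in homozygous bright, 439.8 and 487.4 in homozygous dim, 562.9 in heterozygous bright and 496.8 in heterozygous dim. The bright sums overlapped the controls and the dim sums lay between them, with log2 fold changes of -0.14 ± 0.28 and 0.00 ± 0.30. The 95% intervals of -0.83 to 0.55 and -0.71 to 0.71 still allow a difference of either sign. The bright value changed sign, to 0.20, with scaling by library size. With equal weight per cell the values were 0.62 in bright and 1.01 in dim (limma, adjusted p = 0.601 and 0.463). These fits also took cells under 1000 genes, 4 of 24 and 1 of 9 in control. In bright 1 of 21 and 3 of 59 were such cells, and in dim 0 of 18 and 2 of 50. Over the remaining cells the Dsp medians were 379.0 and 405.8 CPM in control, 443.5 and 523.3 in bright and 467.9 and 441.0 in dim. The part of the cells under 1000 genes was not tested.

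Pkp2 encodes plakophilin-2, the armadillo protein of the plaque. Its level was 58.1 and 67.5 normalized CPM in control, 110.0 and 119.8 in homozygous bright, 81.4 and 98.8 in homozygous dim, 110.3 in heterozygous bright and 93.7 in heterozygous dim. Every transgenic sum was above both controls, and in both homozygous mice and in Mouse_72 the bright cells had more than the dim cells. The log2 fold change to control was 0.85 ± 0.36 in bright cells, with an interval of -0.02 to 1.72. It came closest of the members to the unadjusted threshold (p = 0.054 by edgeR) and had an adjusted p of 0.780.

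Jup encodes plakoglobin, which binds both desmosomal and classical cadherins. It had 96.2 and 78.6 normalized CPM in control, 131.3 and 122.0 in homozygous bright, 146.0 and 110.2 in homozygous dim, 179.7 in heterozygous bright and 123.9 in heterozygous dim. Every transgenic sum exceeded both controls. The log2 fold changes were 0.51 ± 0.34 in bright and 0.53 ± 0.37 in dim cells (adjusted p = 0.902 and 0.979 by edgeR), and 0.78 and 0.93 without the cells that held other cell types' markers.

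The 2 desmosomal cadherins, the adhesion proteins that bridge the gap between cells, did not share this order. Dsg2, desmoglein-2, had 42.3 normalized CPM in control Mouse_26 and 124.4 in control Mouse_73, the highest of all sums. It had 54.4 and 37.8 in homozygous bright, 54.5 and 51.2 in homozygous dim, 59.3 in heterozygous bright and 45.6 in heterozygous dim. The log2 fold changes of -0.89 ± 0.61 and -0.67 ± 0.57 rested on Mouse_73, and became 0.13 and 0.32 without it. Without Mouse_26 they were -1.47 and -1.25, the closest that any member came to the threshold (adjusted p = 0.101 and 0.073 by edgeR). Dsc2, desmocollin-2, had 43.7 and 43.2 in control, 29.4 and 38.5 in homozygous bright, 28.5 and 43.9 in homozygous dim, 64.8 in heterozygous bright and 32.8 in heterozygous dim. Its bright sums were below both controls, whereas the dim sum of Mouse_116 was not on this scale. Its log2 fold changes were -0.38 ± 0.48 and -0.28 ± 0.50, and turned to 0.27 and 0.37 when each cell had equal weight. Without the cells that held other cell types' markers they were -0.41 and -0.56.

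Tjp1 encodes ZO-1, the scaffold that binds connexin 43 at the rim of the gap junction plaque. It had 13.7 and 19.7 normalized CPM in control, 31.4 and 31.2 in homozygous bright, 22.0 and 38.3 in homozygous dim, 27.3 in heterozygous bright and 31.9 in heterozygous dim. All 6 transgenic sums were above both controls, by the smallest margin in the dim cells of Mouse_25. The log2 fold changes of 0.88 ± 0.62 and 0.84 ± 0.67 did not pass the test (adjusted p = 0.917 and 0.989 by edgeR). Without the cells that held other cell types' markers they were 0.56 and 0.35.

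Of the 9 genes, 0 were called in homozygous bright against control, by edgeR at an adjusted p of 0.05, by the same test at an unadjusted p of 0.05, or by DESeq2. Over all 12203 genes tested, 2 were called by edgeR (0.0164%), 799 passed at the unadjusted level (6.55%) and 106 were called by DESeq2 (0.869%). In homozygous dim against control the members' counts were 0 again, and of 12195 genes edgeR called 0 (0.00%), 759 passed unadjusted (6.22%) and DESeq2 called 55 (0.451%). Scaled within each comparison, 5 of the 9 (Gja1, Pkp2, Jup, Ctnna3 and Tjp1) had both bright sums above both controls, as had 24.3% of all genes, and 1 (Dsc2) had both below, as had 14.8%. The dim sums gave the same counts, 5 above and 1 below, beside 23.8% and 14.2% of all genes. The members' median log2 fold change was 0.51 in bright and 0.50 in dim, beside 0.11 and 0.10 over all genes tested, and both comparisons use the same 2 controls. Scaling by library size moved the median of all genes to 0.41 and 0.38 and that of the members to 0.83 and 0.81. With equal weight per cell, cells under 1000 genes included, the members' median was 0.73 and 0.99, beside 0.12 and 0.14 over all genes. Without control Mouse_26 the order turned, with medians of 0.94 and 0.92 over all genes and 0.51 and 0.40 over the members. Without Mouse_116 the members' median was 0.26 in bright and 0.35 in dim, beside 0.02 over all genes in both.

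**Figure D2:**
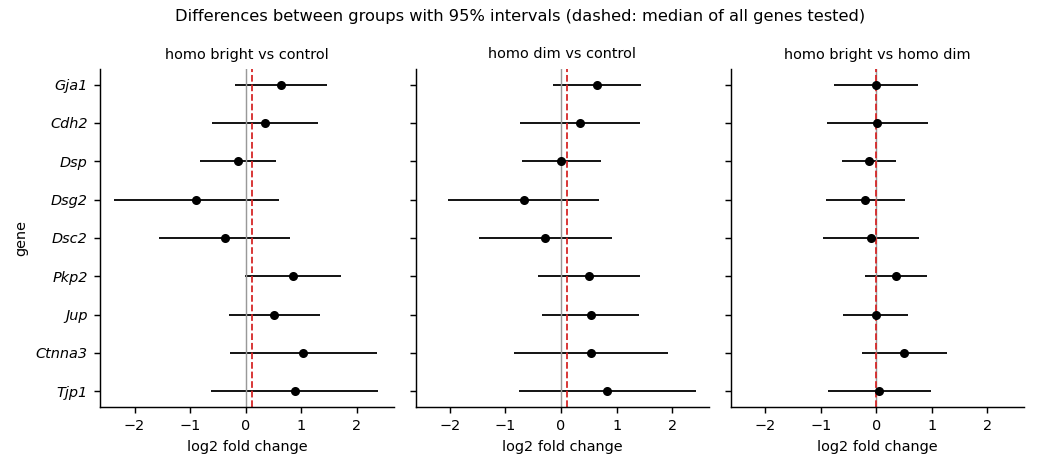
Log2 fold change (x axis) of each junction gene (y axis) in the 3 comparisons, as points with 95% intervals from the edgeR fit; the dashed red line is the median of all genes tested. Every interval includes 0, and against control the interval of Tjp1 is the widest in both panels.

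Each library set held 1 control and 1 homozygous mouse, so the differences were also read within sets. The signs for Gja1, Pkp2, Jup, Ctnna3, Tjp1 and Dsc2 follow from their groups not overlapping in these fits, so for them only the sizes are read. In set GL-9122b (Mouse_25 against Mouse_26) the log2 difference of bright from control was 0.43 for Gja1, 0.93 for Pkp2, 0.46 for Jup, 1.19 for Ctnna3, 1.17 for Tjp1, 0.46 for Cdh2, -0.11 for Dsp, 0.37 for Dsg2 and -0.55 for Dsc2. In set GL9989 (Mouse_116 against Mouse_73) it was 0.78, 0.77, 0.57, 0.82, 0.59, 0.26, -0.16, -1.76 and -0.22 in the same order, and Dsg2 changed sign between sets. The median of all genes tested was 0.01 in the first set and 0.42 in the second. In dim cells the first 5 of these genes ranged from 0.43 to 0.66 in GL-9122b and from 0.46 to 0.91 in GL9989. There Cdh2 was at 0.10 and 0.47, Dsp at 0.05 and -0.04, Dsg2 at 0.36 and -1.30 and Dsc2 at -0.61 and -0.01, with all-gene medians of 0.01 and 0.44.

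Bright and dim cells of the homozygous mice differ in how much of the transgene they held, and both came from the same animals. The main fit did not pair them by animal, and values are from it unless stated. The log2 fold change of bright to dim was -0.01 ± 0.30 for Gja1, 0.02 ± 0.37 for Cdh2, -0.13 ± 0.19 for Dsp and -0.01 ± 0.24 for Jup. The paired fit gave 0.08 ± 0.20 for Cdh2, -0.13 ± 0.10 for Dsp and 0.36 ± 0.16 for Pkp2. For Gja1 the 95% interval ran from -0.77 to 0.75, and from -0.33 to 0.28 with the animal as a replicate block (-0.02 ± 0.11). In the paired fit the interval of Tjp1 was the widest among the members, from -0.81 to 1.03. Pkp2 (0.35 ± 0.22) and Ctnna3 (0.50 ± 0.31) were the members with both bright sums above both dim sums, 2 of 9 beside 15.4% of all genes, and 0 of 9 had both below, beside 15.7%. Within Mouse_25 and Mouse_116 the bright cells exceeded the dim cells by 0.44 and 0.28 for Pkp2 and by 0.74 and 0.21 for Ctnna3 on the log2 scale. Without the cells that held other cell types' markers the Pkp2 value was 0.20, and with equal weight per cell 0.05. The Ctnna3 value was 0.21 without the bright sum of Mouse_25 and 0.73 without that of Mouse_116. No member passed the test (0 of 9, also at an unadjusted p of 0.05 and with DESeq2), and of the 13439 genes tested edgeR called 0 (0.00%), 560 passed unadjusted (4.17%) and DESeq2 called 89 (0.662%). The members' median was -0.01 and that of all genes 0.00.

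Ratios within a sum do not depend on scaling. The ratio of Gja1 to Cdh2 counts, the channel against the cadherin, was 3.25 and 2.63 in control, 3.19 and 3.75 in homozygous bright, 4.32 and 3.20 in homozygous dim, and 2.94 and 3.29 in heterozygous bright and dim. The groups overlapped, and the bright mean of 3.47 ± 0.40 (SD, n = 2) was not told apart from the control mean of 2.94 ± 0.44 (two-sided exact permutation test, p = 0.667). The ratio of desmosomal counts (Dsp, Dsg2, Dsc2, Pkp2 and Jup) to adherens counts (Cdh2 and Ctnna3) was 6.70 and 6.09 in control and 4.58 and 4.38 in homozygous bright. It was 6.61 and 4.16 in homozygous dim, where Mouse_25 lay between the 2 controls and Mouse_116 below the bright cells, and 5.82 and 4.72 in heterozygous bright and dim. The bright sums lay below the controls without overlap, at 0.702 of the control level, with p = 0.333 in the exact permutation test, the smallest that 2 against 2 mice can give. The same test gave 0.667 for dim against control, and all 6 ratio tests had a Benjamini-Hochberg adjusted p of 1.0. Without Ctnna3 the log2 difference of bright from control was -0.36 in place of -0.51. This ratio weighs genes by their counts. Dsp gave 7606 of the 11913 desmosomal counts in control Mouse_26 and 20575 of 34920 in the bright cells of Mouse_116. Cdh2 gave 1376 of the 1778 and 6342 of the 7965 adherens counts. Pkp2 and Jup, also desmosomal, were above both controls in every transgenic sum.

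**Figure D3:**
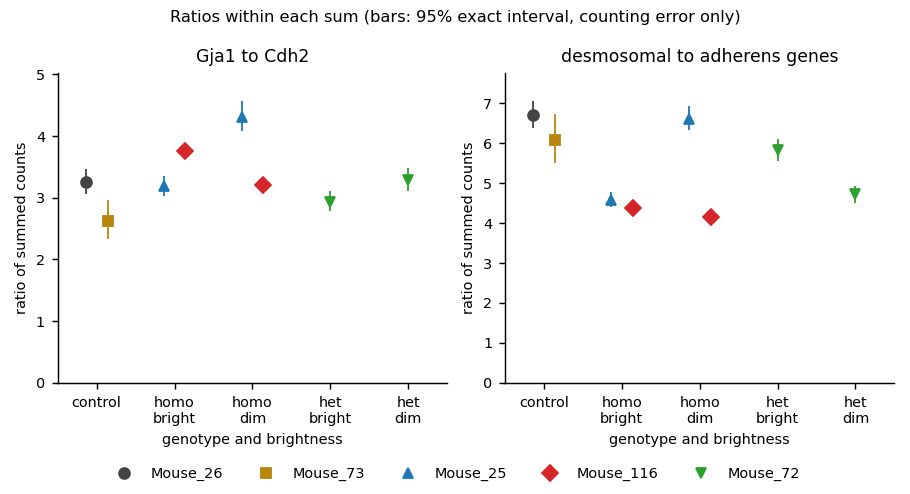
Ratio of summed counts (y axis, from 0) of Gja1 to Cdh2 (left) and of the 5 desmosomal to the 2 adherens junction genes (right) in each of the 8 sums, with 95% exact intervals for counting error only. On the right, homozygous bright sits at 4.58 and 4.38, below the controls at 6.70 and 6.09, while homozygous dim is split between 6.61 and 4.16.

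The heterozygous cells came from 1 mouse, so no test was made and the intervals cover counting error only. Against control Mouse_73 of the same plate, GL9989-1, the CPM ratio of heterozygous bright cells was 1.48 (95% exact interval 1.39 to 1.59) for Gja1, 1.84 (1.60 to 2.12) for Pkp2, 2.58 (2.27 to 2.94) for Jup, 2.06 (1.60 to 2.71) for Ctnna3 and 1.56 (1.20 to 2.05) for Tjp1. In heterozygous dim cells it was 1.55 (1.45 to 1.65) for Gja1 and 3.46 (2.69 to 4.51) for Ctnna3. For Ctnna3 1 of these cells was at 852.9 CPM, beside a median of 30.9 over the 25 with at least 1000 genes. Its part in the ratio was not tested. Dsg2 was lower than in Mouse_73 in both classes, at 0.54 (0.48 to 0.61) and 0.45 (0.40 to 0.51). Dsc2 went apart between the classes, at 1.69 (1.42 to 2.03) in bright and 0.93 (0.77 to 1.13) in dim. In normalized CPM the ratios to Mouse_73 were lower for every member. They were 1.31 in bright and 1.26 in dim for Gja1, 1.63 in bright for Pkp2 and 2.82 in dim for Ctnna3. For Dsg2 they were 0.48 and 0.37. In heterozygous bright and dim cells the fibroblast markers summed to 513 and 39 CPM, the endothelial markers to 108 and 193, the immune markers to 19 and 3, the mural markers to 857 and 1137 and the immediate early genes to 301 and 379, and their part in these ratios was not tested. For 7 of the 9 genes both heterozygous sums were above both controls in normalized CPM, as for 20% of the 16615 genes tested with all groups in 1 fit. Mouse_72 was the only animal with more than traces of Y-linked transcripts (Ddx3y at 77.4 and 58.1 CPM) and in the other 4 it was at 0.24 CPM or lower, so genotype and sex cannot be told apart for the heterozygous cells.

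Over single cells, 219 with at least 1000 genes detected were kept. Gja1 and Dsp had a count in 99.1% and 99.5% of them, Pkp2 in 97.7%, Cdh2 in 97.3% and Jup in 96.8%. The weaker genes were detected in fewer cells, at 84.5% for Dsg2, 73.1% for Ctnna3, 69.9% for Tjp1 and 69.4% for Dsc2. The median CPM of Gja1 was 215.5 and 306.5 over the cells of control Mouse_26 and Mouse_73, 387.3 and 573.7 in homozygous bright, and 301.9 and 567.2 in homozygous dim, so the dim cells of Mouse_25 fell among the controls by this measure. For Pkp2 the medians were 40.7 and 30.3 in control, 110.2 and 91.6 in homozygous bright and 91.9 and 94.5 in homozygous dim, all above both controls, while the dim medians lay between the bright ones. The Ctnna3 median was 3.1 and 0 CPM in control, 36.0 and 14.7 in homozygous bright and 5.0 and 13.1 in homozygous dim, again above both controls, but 2.5 in heterozygous bright, which lay between the controls. The Tjp1 median was 8.2 and 1.7 in control, 20.9 and 5.7 in homozygous bright and 4.3 and 11.4 in homozygous dim, so by this measure the groups overlapped. The highest level of Ctnna3 in any cell was 852.9 CPM, in 1 heterozygous dim cell. Cells of 1 mouse are not replicates, so these are descriptions.

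**Figure D4:**
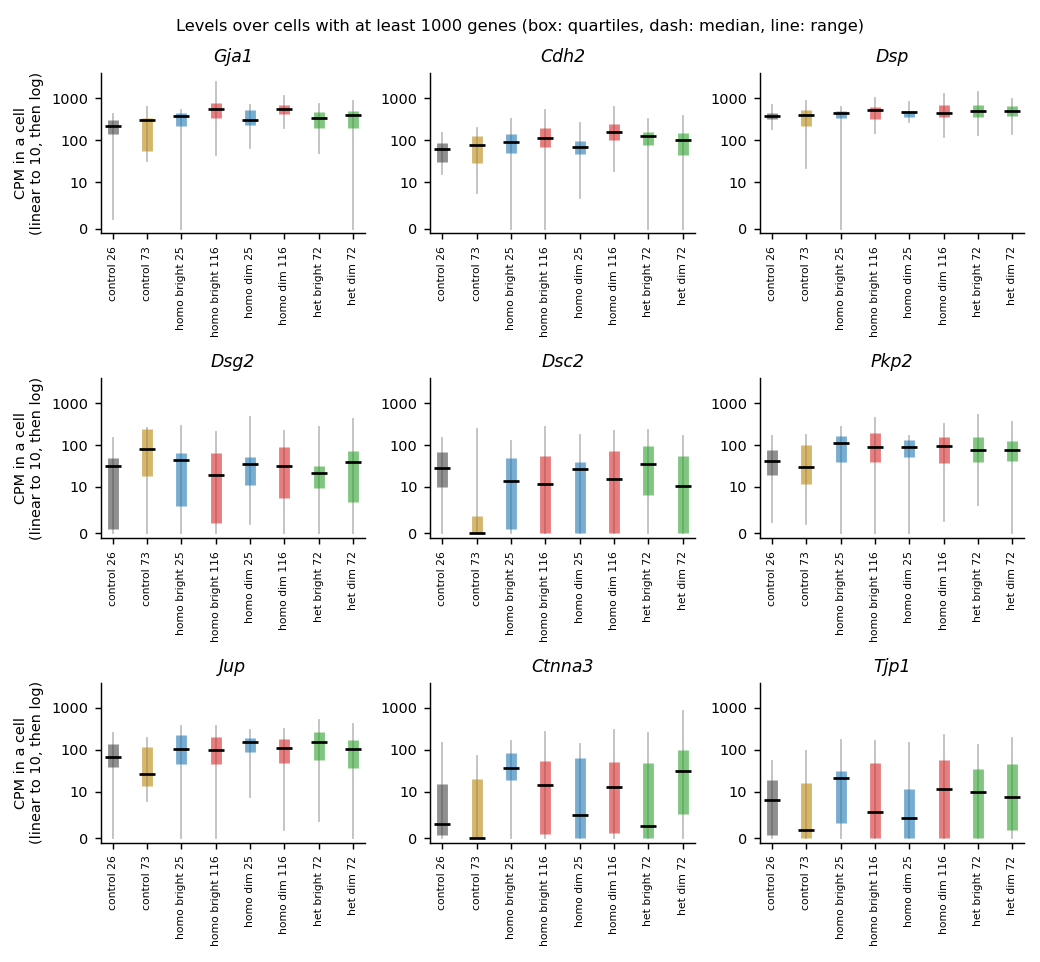
CPM of each junction gene in single cells (y axis, linear to 10 and logarithmic above) for the 8 sums (x axis), over cells with at least 1000 genes; thick bars are quartiles, dashes medians and thin lines the full range. Gja1 and Dsp are found in nearly every cell, while the quartile bars of Dsc2, Ctnna3 and Tjp1 reach 0 or near it in most sums.

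The members varied together only weakly from cell to cell. After the mean of each mouse and class was taken off, 29 of the 36 pairs had a Pearson r above 0 over the 219 cells, with a median of 0.087, beside 0.045 over all pairs of 4919 genes found in at least 50% of cells. The highest was Gja1 with Dsp (r = 0.324), followed by Gja1 with Pkp2 (r = 0.232). Cells share depth and library, which can raise any such r. Among the genes most like Gja1 were Atp2a2 (r = 0.544), the calcium pump of the sarcoplasmic reticulum, and its inhibitor Pln (r = 0.501), then Fkbp3 (r = 0.487). The 3 nearest to Dsp were Actn2 (r = 0.565), the α-actinin of the Z-disc, and the sarcomere genes Myl3 (r = 0.544) and Tnni3 (r = 0.540). Pkp2 was nearest to Gata6 (r = 0.370), a cardiac transcription factor, Cdh2 to Tns1 (r = 0.425), and Jup to Opa3 (r = 0.398). For Dsg2, Dsc2, Ctnna3 and Tjp1 the highest r was 0.282 (Tomm40), 0.288 (Cbr4), 0.269 (Rwdd4a) and 0.333 (Tubb5). For the mean of the 9 members the 5 nearest were Uqcrc1 (r = 0.557), Atp5b (r = 0.551), Atp5a1 (r = 0.529), Gapdh (r = 0.518) and Map1lc3a (r = 0.516), of which the first 3 belong to the mitochondrial respiratory chain and ATP synthase. With the human BAG3 transgene within a mouse, Spearman's rho of the members lay between -0.29 (Pkp2 in Mouse_72) and 0.37 (Tjp1 in Mouse_25), and within a brightness class it ran from -0.40 (Pkp2 and Dsp in Mouse_72 bright) to 0.51 (Pkp2 in Mouse_25 bright).

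The list of 50 other disc genes, with further catenins, connexins, actin linkers and ion channels, gives a wider view. Of these, 42 were tested in bright against control and 0 were called by edgeR, while 3 passed at an unadjusted p of 0.05 and DESeq2 called 0. In dim against control 41 were tested, 0 were called, 3 passed unadjusted and DESeq2 called 1. In bright against dim 42 were tested, 0 were called, 2 passed unadjusted and DESeq2 called 1. Over all genes the unadjusted shares were 6.55%, 6.22% and 4.17%, near those of the list. The list's median log2 fold changes of 0.06, 0.06 and 0.02 were close to those of all genes (0.11, 0.10 and 0.00). Both sums were above both controls for 12 of them in bright and 10 in dim cells, and below for 3 and 6, against the shares of all genes given above (24.3% and 23.8% above, 14.8% and 14.2% below). In bright against dim, 11 of the 42 had both bright sums above both dim sums and 4 had both below, against 15.4% and 15.7% of all genes.

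The gene that DESeq2 called in dim against control was Kcnj2, which encodes the inward rectifier channel Kir2.1. It had 32.4 and 108.7 normalized CPM in control and between 7.3 and 18.2 in the 6 transgenic sums, all below both controls. Its log2 fold change was -2.51 ± 0.82 in bright and -2.90 ± 0.71 in dim cells (edgeR adjusted p = 0.663 and 0.735; DESeq2 adjusted p = 0.015 in dim). Dlg1, a scaffold that binds such channels (SAP97), had 16.8 and 52.8 in control, 12.9 and 10.6 in homozygous bright and 7.8 and 9.0 in homozygous dim. As for Dsg2, control Mouse_73 held the higher value of both genes. Gjc1, connexin 45, had 4.9 and 6.7 in control and 10.1 to 25.2 in the transgenic sums, with log2 fold change 1.97 ± 0.82 in dim cells (adjusted p = 0.801 by edgeR). Panx1 was at 0 counts in both controls and at 27 and 43 counts in homozygous bright, and no fold change is given against 0.

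Xirp2, an actin-binding repeat protein of the disc, had the smallest unadjusted p between bright and dim among the 50. It had 658.0 and 737.3 normalized CPM in homozygous bright, 257.6 and 152.4 in homozygous dim, 315.3 and 411.6 in control, 272.8 in heterozygous bright and 301.7 in heterozygous dim. The bright sums of both homozygous mice were above all others and the dim sums below all others. The log2 fold change of bright to dim was 1.77 ± 0.30, with an adjusted p of 0.999 by edgeR and of 5.55e-06 by DESeq2, so the call depended on the tool. Xirp1 followed with 0.57 ± 0.22, Sorbs2 with 0.38 ± 0.20 and Itgb1 with -0.34 ± 0.19 (adjusted p = 0.999 for each by edgeR). Of the 50 genes, 5 were at 0 in all sums, and Gja5 (connexin 40, of atria and the conduction system) had 1 count in all.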

How the data were processed

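Single-cell libraries were made by SMART-seq2, aligned by the authors with STAR and counted per gene. The deposited values are raw read counts per gene and cell, with no molecular identifiers. The genome build, annotation and strand setting are not given in the sources used here. All 234 cell columns matched a sample label, 0 columns of other samples were left out, and 0 pairs of cells held identical values. Groups, mice and library sets came from the labels.

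Counts were summed per mouse and brightness class. The sums held 4096609 to 40508124 counts, and exact 95% intervals cover counting error only. Comparisons (2 mice a group) used edgeR 4.0.16 (filterByExpr, TMM, glmQLFit and glmQLFTest) over all genes, with Benjamini-Hochberg adjustment and a threshold of 0.05, whatever genes were described. DESeq2 1.42.0 and limma 3.58.1 (R 4.3.3) gave alternatives, and fits were tested on simulated data. The authors' own test took cells as replicates. Animals of a group may differ in ways other than genotype, and p-values measure only the spread between these mice. Bright and dim cells of the homozygous mice came from the same animals, and their deviations over 13439 genes had r = 0.082 (Spearman's rho = 0.119).

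Levels in cells are CPM over cells with at least 1000 genes. Fits with equal weight per cell took all 234 cells, also the 15 with fewer genes. Correlations used log2(CPM + 10) after the mean of each mouse and class was subtracted. Genes were named by rule: the 9 members, the 5 other disc genes with the smallest p in each comparison (1 of them is not reported here), and the 3 genes (5 for the mean) most correlated with a member. The members and all lists were chosen with earlier results of these data known. Exon lengths and overlaps came from GENCODE M21 and upstream sequences from RefSeq (GRCm38.p6), neither known to be the build of the counts. The removal of cells with at least 500 CPM of fibroblast, endothelial, immune or mural markers (Acta2 not counted; 40 cells) was chosen after seeing the data.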

Additional observations from a re-analysis of the deposited data

Results flagged for a closer look

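The heterozygous cells entered no test, since all came from Mouse_72. For 7 of the 9 genes the lower of its 2 sums exceeded the higher control, as for 20% of the 16615 genes tested with all groups in 1 fit, and this raised them for a closer look. The ratio of the 2 normalized CPM was 1.26 for Gja1, 1.007 for Cdh2, 1.014 for Dsp, 1.39 for Pkp2, 1.29 for Jup, 1.59 for Ctnna3 and 1.38 for Tjp1. For Cdh2 and Dsp the excess was under 2 percent, whereas Ctnna3 had the widest gap. Dsg2 and Dsc2 had no such gap. With 1 animal, whose Y-linked transcripts set it apart from the 2 controls, genotype, sex and animal cannot be told apart.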

How the results depend on the processing

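No member passed the adjusted threshold under any alternative, and the signs of Gja1, Pkp2, Jup, Ctnna3, Tjp1 against control held in all of them. The number of genes called moved for bright against control, dim against control and bright against dim to 106, 55 and 89 with DESeq2 and to 163, 58 and 217 with no filter. With all groups in 1 fit it was 5 and 1 against control, with the library set as a block 10 and 12, with bright and dim summed 2 in dim, and with equal weight per cell 1 in dim. Leaving out 1 mouse gave 0 to 41, 3 to 827 (827 without control Mouse_26) and 0 to 74. With the animal as a replicate block for bright against dim, 0 genes and 0 members were called, and it changed no other call. Over all alternatives the log2 fold change to control ran, in bright and dim, from 0.26 to 1.04 and 0.37 to 1.36 for Gja1, 0.69 to 1.18 and 0.35 to 1.04 for Pkp2, 0.40 to 0.83 and 0.37 to 1.11 for Jup, 0.80 to 1.35 and 0.46 to 0.83 for Ctnna3, and 0.56 to 1.22 and 0.35 to 1.23 for Tjp1. The lowest adjusted p of any member was 0.073, for Dsg2 in dim without control Mouse_26. These signs turned. Dsp in dim became -0.035 with DESeq2 and -0.076 with bright and dim summed. Dsp in bright became 0.62 with equal weight per cell and 0.20 with library size. Dsc2 became 0.27 in bright and 0.37 in dim with equal weight, and 0.022 in dim with library size. In bright against dim, Cdh2 became -0.079 and Dsc2 0.14 without cells with other markers, Cdh2 -0.17 with equal weight, and Gja1 0.014 and Jup 0.010 with library size. Leaving out 1 mouse gave, in bright against control, -1.47 to 0.13 for Dsg2 and -0.26 to 0.018 for Dsp. In dim against control it gave -0.22 to 0.78 for Cdh2, -0.63 to 0.047 for Dsc2, -1.25 to 0.32 for Dsg2 and -0.10 to 0.12 for Dsp. In bright against dim 1 sum was left out at a time, and the other class of that mouse stayed in. The range was then -0.38 to 0.57 for Cdh2, -0.38 to 0.25 for Dsc2 and -0.50 to 0.042 for Dsg2. It was -0.38 to 0.27 for Gja1, -0.20 to 0.20 for Jup and -0.29 to 0.51 for Tjp1. The cause was not tested. In bright against control the 2 ratios kept their direction. Between bright and dim both went opposite ways in Mouse_25 and Mouse_116. For Gja1 to Cdh2 the values were 3.19 against 4.32 and 3.75 against 3.20. For desmosomal to adherens counts they were 4.58 against 6.61 and 4.38 against 4.16. The dim value of 6.61 also lay between the controls at 6.70 and 6.09. Where 1 sum was left out, the lone sum was assumed to vary like the other group. Having 2 mice a group limits what any of these tests could call.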
